A study of Mus musculus with 10 samples.

Results

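The transcripts of 10 plasma proteins that hepatocytes make are described, chosen by gene name from deposited tables of 56748 genes. They are albumin (Alb), transthyretin (Ttr), the vitamin D binding protein (Gc), fetuin-A (Ahsg), corticosteroid-binding globulin (Serpina6) and the mouse alpha-1-antitrypsin paralogs Serpina1a, Serpina1b, Serpina1c, Serpina1d and Serpina1e. All 10 passed the filter on low counts. RNA came from primary hepatocytes of wild-type mice that were treated overnight with medium conditioned by starved adipocytes. In Mttp_KO_CM (5 libraries) the medium came from adipocytes of A-Mttp-/- mice, which lack Mttp in adipose tissue, and in Mttp_flox_CM (5 libraries) from adipocytes of Mttpf/f mice. The product of Mttp, microsomal triglyceride transfer protein, loads lipid onto lipoproteins. The hepatocytes were wild type in both groups, so their own Mttp level does not check the labels. In both groups the adipocytes were grown from the inguinal stromal vascular fraction of male mice kept for 6 months on an obesogenic diet. They were differentiated with IBMX, insulin, dexamethasone, indomethacin and rosiglitazone. The labels give 3 fat donors without saying how they map to libraries, and the sources used here name neither the Cre driver nor the age of the mice. Whether libraries within a group derive from distinct cultures or donors is not stated, so each p-value reflects library-to-library spread that could be technical.

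The liver secretes most of the protein in plasma, and the carriers among these proteins keep poorly soluble ligands in circulation. Albumin carries fatty acids, bilirubin and many drugs, transthyretin carries thyroxine and the retinol-binding protein, the Gc protein carries vitamin D metabolites and corticosteroid-binding globulin carries glucocorticoids. Fetuin-A binds calcium phosphate and limits mineral deposition, and alpha-1-antitrypsin is a serine protease inhibitor (serpin) that blocks neutrophil elastase. Humans have a single gene for alpha-1-antitrypsin, whereas mice have a set of near-identical copies. Albumin and transthyretin belong to the negative acute phase proteins, whose synthesis drops in inflammation.

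The alpha-1-antitrypsin copies are shown by sequence first, because their similarity bears on every count given for them. In the GENCODE M21 annotation (GRCm38) their coding sequences were between 91.4% and 96.7% identical over the 10 pairs, with gaps counted as differences. Pairs with Serpina1a had the lower values. Its longest coding sequence had 1308 bases where the others had 1239, and its unmatched bases lower these values. They therefore do not show that Serpina1a is the least alike copy. Of the 1239 coding bases of Serpina1b, 86 differed or had no counterpart in at least 1 other copy. The stretch of 60 bases with the most differences had 18 differing positions. It lies in the part that encodes the reactive centre loop, the bait that a protease cleaves and the segment that sets which protease a serpin inhibits. It is printed 5′ to 3′ on the minus strand of GRCm38, with capitals at the positions where the 5 copies are not all alike.
Serpina1a (chr12:103853757-103853816): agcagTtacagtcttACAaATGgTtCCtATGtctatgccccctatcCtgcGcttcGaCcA
Serpina1b (chr12:103728324-103728383): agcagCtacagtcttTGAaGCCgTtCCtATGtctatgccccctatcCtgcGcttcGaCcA
Serpina1c (chr12:103895094-103895153): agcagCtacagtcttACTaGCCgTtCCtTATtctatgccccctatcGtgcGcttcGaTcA
Serpina1d (chr12:103763762-103763821): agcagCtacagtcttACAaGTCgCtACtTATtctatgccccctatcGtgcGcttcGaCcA
Serpina1e (chr12:103947100-103947159): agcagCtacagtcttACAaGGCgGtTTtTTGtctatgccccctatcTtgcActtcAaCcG
Serpina1a differed from Serpina1b at 6 of these bases, Serpina1c at 8, Serpina1d at 9 and Serpina1e at 11.

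Stretches of 100 or 150 bases, lengths set here and not taken from the reads, were often identical between copies. Of all windows of 100 bases in the coding sequence, 61.8% in Serpina1c and 58.1% in Serpina1a occurred letter for letter in a transcript of another copy. The share was 29.9% in Serpina1d, 28.0% in Serpina1b and 19.1% in Serpina1e. With windows of 150 bases it was 53.1% in Serpina1c, 50.3% in Serpina1a, 24.2% in Serpina1b, 23.0% in Serpina1d and 9.91% in Serpina1e. These shares count matches among the copies only. Matches to the pseudogene Gm8893, described below and 98.8% identical to the Serpina1a coding sequence, are not in them. The sources used here do not say how reads that match several genes were counted, so the counts of single copies are uncertain, and least certain for Serpina1a and Serpina1c. The Serpina1b gene model also runs across Serpina1d on the same strand, but in GENCODE M21 their exons shared 0 bases.

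Library depth was similar in both groups. Libraries held between 14283517 and 17178131 counts in Mttp_KO_CM and between 14199798 and 15950530 in Mttp_flox_CM. All 18 hepatocyte markers were expressed, with summed levels of 19456 to 20930 CPM (read counts scaled to a common library size with TMM factors) in Mttp_KO_CM and 23425 to 24063 CPM in Mttp_flox_CM. Of 14183 genes tested with edgeR's quasi-likelihood test, 18.1% were lower and 18.2% higher in Mttp_KO_CM at an adjusted p under 0.05, or 36.4% in either direction. Scaling by library size alone in place of TMM, 38.1% of calls were on the higher side, against 50.1% with TMM, and the median log2 change of all genes tested was -0.04. Column names in the tables carried a number that no label gives for 1 library per group, called the unnumbered library, and its letter gave the group.

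Of the 10 transcripts, 6 were lower in cultures given knockout medium and 0 were higher, where 18.1% and 18.2% of all genes tested were. Ahsg, Serpina1a and Serpina1b fell by between 35.4% and 38.8%, and Alb, Ttr and Gc by between 13.9% and 16.3%. Serpina1c, Serpina1d, Serpina1e and Serpina6 did not pass the test. For the 6 that fell, every Mttp_KO_CM library lay below every Mttp_flox_CM library, which held for 12.7% of genes tested, while 13.0% were separate in the other direction. The members together took 3.39 ± 0.0627% of all counts in Mttp_KO_CM and 4.31 ± 0.0837% in Mttp_flox_CM (SD, n = 5 each). The median log2 change of the 10 was -0.22, beside 0.00 over all genes tested. A bulk measurement cannot tell fewer hepatocytes from less of a transcript per hepatocyte.

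**Figure D1:**
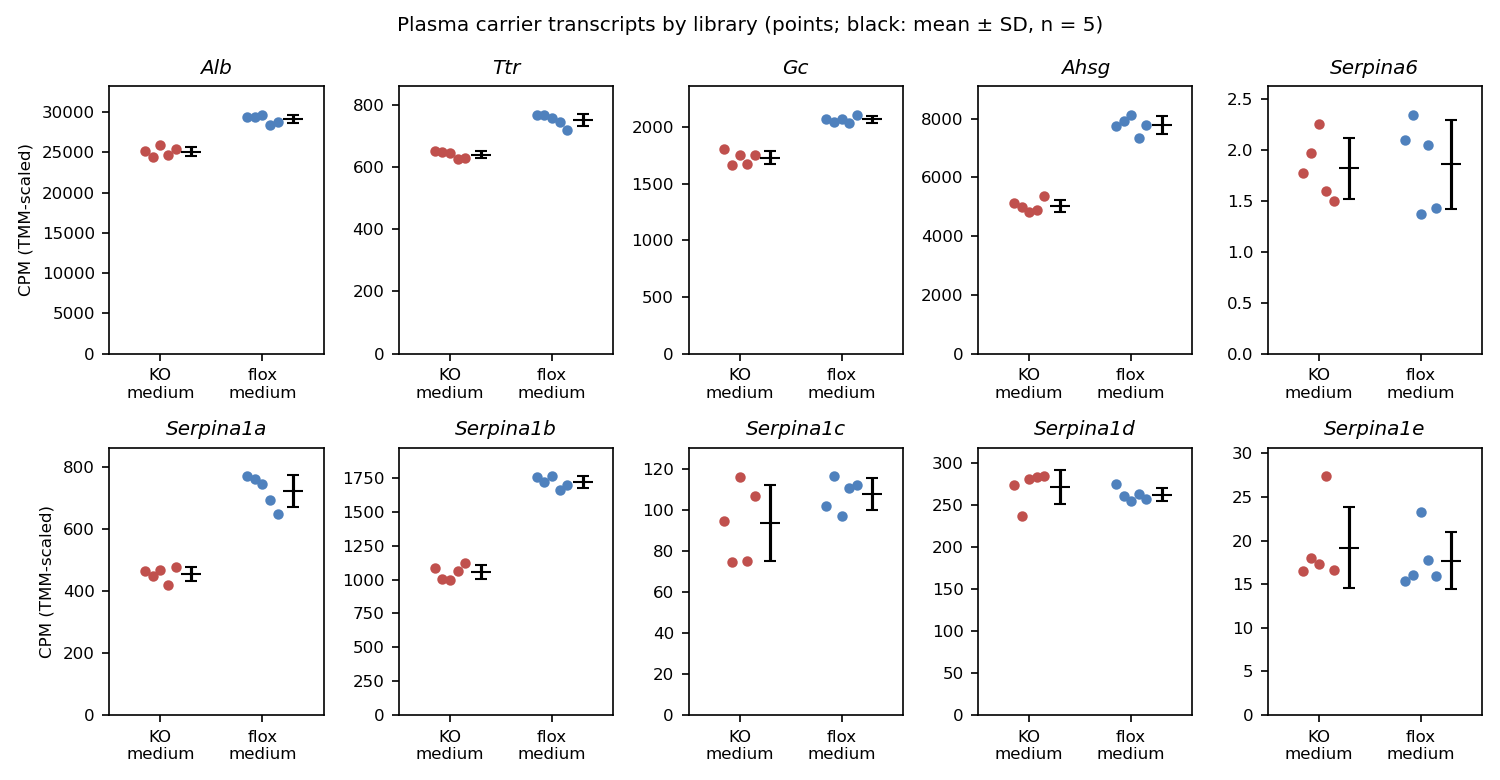
Level of each of the 10 transcripts in each library (vertical axis, CPM, TMM-scaled, starting at 0), with Mttp_KO_CM in red on the left and Mttp_flox_CM in blue on the right of each panel, and black marks for the mean ± SD (n = 5 each). In Alb, Ttr, Gc, Ahsg, Serpina1a and Serpina1b the 2 groups do not overlap, and in the other panels they do.

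Alb was the most abundant transcript per length in both groups and fell in Mttp_KO_CM. Alb (ENSMUSG00000029368) maps to chromosome 5 (90608756 to 90624461, plus strand; GRCm39, as for all gene positions of the deposited tables). Its level was 25133, 24424, 25913, 24639 and 25378 CPM in Mttp_KO_CM and 29381, 29369, 29689, 28420 and 28830 CPM in Mttp_flox_CM (replicates 1 to 4, then the unnumbered library). The highest Mttp_KO_CM library stayed under the lowest Mttp_flox_CM library. The means were 25098 ± 594 CPM in Mttp_KO_CM and 29138 ± 507 CPM in Mttp_flox_CM, a log2 change of -0.22 (SE 0.022, edgeR adjusted p = 2.8e-08). Alb alone took 2.47 ± 0.0523% of counts in Mttp_KO_CM and 2.95 ± 0.0481% in Mttp_flox_CM.

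Gc, which belongs to the albumin gene family as Alb does, changed by a like amount. Gc (ENSMUSG00000035540) maps to chromosome 5 (89565381 to 89605757, minus strand). Its libraries had 1807, 1664, 1756, 1676 and 1759 CPM in Mttp_KO_CM and 2077, 2045, 2077, 2042 and 2112 CPM in Mttp_flox_CM. No library of one group reached into the other. Its log2 change was -0.26 (SE 0.025, edgeR adjusted p = 8.9e-09). Afp and Afm, further genes of that family on chromosome 5, did not pass the test. Their log2 changes were 0.04 and -0.19 (edgeR adjusted p = 0.527 and 0.0951).

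Ttr, on chromosome 18 from 20798337 to 20807378 (ENSMUSG00000061808, plus strand), moved likewise. It had 652, 650, 646, 628 and 629 CPM in Mttp_KO_CM and 769, 770, 758, 747 and 719 CPM in Mttp_flox_CM. The groups were again separate, with the unnumbered library the lowest of Mttp_flox_CM. This gave a log2 change of -0.23 (SE 0.025, edgeR adjusted p = 6.3e-08). Set against Alb in the same library, Ttr had 50.5 ± 1.49 FPKM per 1000 FPKM of Alb in Mttp_KO_CM and 51.0 ± 1.15 in Mttp_flox_CM, where FPKM is the deposited level per length. For Gc the ratio was 87.6 ± 2.18 in Mttp_KO_CM and 90.2 ± 1.89 in Mttp_flox_CM. Both ratios overlapped between the groups.

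Ahsg fell much further than Alb. Ahsg (ENSMUSG00000022868) maps to chromosome 16 (22710027 to 22718199, plus strand). The libraries had 5114, 4980, 4828, 4883 and 5365 CPM in Mttp_KO_CM and 7745, 7937, 8141, 7334 and 7797 CPM in Mttp_flox_CM. The gap between the groups was wider than the range within either. The fitted log2 change was -0.63 (SE 0.029, edgeR adjusted p = 7.6e-15), or 35.4% lower. Against Alb in the same library, Ahsg had 214 ± 9.92 FPKM per 1000 FPKM of Alb in Mttp_KO_CM and 285 ± 6.86 in Mttp_flox_CM, with no overlap. By FPKM Ahsg was the 11th most abundant gene of Mttp_KO_CM and the 5th of Mttp_flox_CM. The antisense gene Gm30505 overlaps it, but all 10 libraries together held 646 counts for that gene.

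Serpina6, the carrier of glucocorticoids, had few counts in these cultures. Serpina6 (ENSMUSG00000060807) maps to chromosome 12 (103612889 to 103623471, minus strand). Its counts were 27, 28, 38, 25 and 21 in Mttp_KO_CM and 30, 35, 22, 33 and 21 in Mttp_flox_CM. The groups overlapped fully, and the log2 change was -0.02 (SE 0.21, edgeR adjusted p = 0.946). A change of the size seen for Alb was not detectable at this depth. The sign turned when any of 5 single libraries was left out, namely Mttp_KO_CM replicate 4 or the unnumbered one (0.02 and 0.03) and Mttp_flox_CM replicate 1, 2 or 4 (0.02, 0.07 and 0.01).

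**Figure D2:**
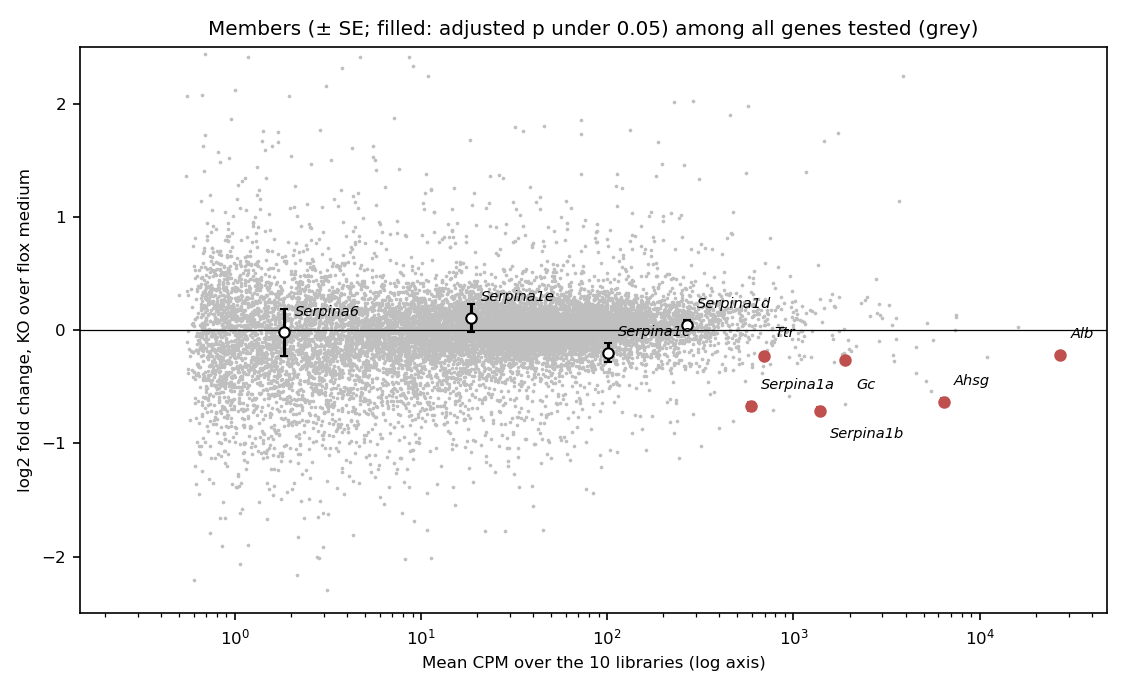
Log2 fold change of Mttp_KO_CM over Mttp_flox_CM (vertical axis) against mean CPM over the 10 libraries (horizontal log axis) for all genes tested in grey and for the 10 members with their SE, filled red where the adjusted p was under 0.05. The vertical axis ends at 2.5 in both directions and leaves out 19 genes. Serpina1a, Serpina1b and Ahsg lie under the main cloud at their level, while Serpina1c, Serpina1d, Serpina1e and Serpina6 lie within it.

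The level of a transcript affects how small a change can be called, so the members were also read against abundant genes, a comparison chosen after seeing the data. Among 2069 genes with a mean of at least 100 CPM, 19.6% were lower, 41.8% higher and 61.4% either in Mttp_KO_CM, 15.7% were without overlap on the lower side and 34.1% on the higher side, and their median log2 change was 0.05. A call with a drop of at least 0.5 on the log2 scale was found for 6.2% of all genes tested and for 1.69% of the abundant ones, or 35 in number, and Ahsg, Serpina1a and Serpina1b were 3 of them. Alb, Ttr and Gc were called with smaller drops. Of all genes tested, 3.79% had a lower log2 change than Serpina1b, 4.23% than Serpina1a, 4.8% than Ahsg and 18.8% than Alb.

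The alpha-1-antitrypsin copies split into 2 that fell and 3 that did not pass the test. Serpina1b (ENSMUSG00000071178, chromosome 12 from 103694415 to 103796632, minus strand) was the most abundant. It had 1082, 1006, 997, 1060 and 1121 CPM in Mttp_KO_CM and 1757, 1722, 1763, 1658 and 1700 CPM in Mttp_flox_CM. All Mttp_KO_CM libraries were far under all Mttp_flox_CM libraries. The log2 change was -0.71 (SE 0.030, edgeR adjusted p = 9.8e-16), the largest drop among the 10 transcripts and 38.8% of its level.

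Serpina1a (ENSMUSG00000066366, chromosome 12 from 103819848 to 103829821, minus strand) fell by nearly as much. It had 463, 447, 469, 419 and 476 CPM in Mttp_KO_CM and 770, 760, 743, 693 and 648 CPM in Mttp_flox_CM. The groups were separate, although the Mttp_flox_CM libraries were spread more widely than those of Serpina1b. Its log2 change was -0.67 (SE 0.040, edgeR adjusted p = 1.0e-12).

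Serpina1d (ENSMUSG00000071177, chromosome 12 from 103729853 to 103739851, minus strand), the third in abundance, did not pass the test. It had 274, 237, 281, 283 and 285 CPM in Mttp_KO_CM and 276, 261, 255, 264 and 257 CPM in Mttp_flox_CM. The groups overlapped, and 4 of the 5 Mttp_KO_CM libraries lay at 274 CPM or above. This gave a log2 change of 0.05 (SE 0.039, edgeR adjusted p = 0.35). Without Mttp_KO_CM replicate 2, the low library, it was 0.09 with an edgeR adjusted p of 0.0154.

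Serpina1c (ENSMUSG00000079015, chromosome 12 from 103861185 to 103871146, minus strand) varied most within Mttp_KO_CM among the copies above 50 CPM. It had 94.9, 74.8, 116, 75.4 and 107 CPM in Mttp_KO_CM and 102, 117, 97.4, 111 and 112 CPM in Mttp_flox_CM. Replicates 1, 2 and 4 of Mttp_KO_CM were under all Mttp_flox_CM libraries, while replicate 3 and the unnumbered library were not. The fitted log2 change was -0.20 (SE 0.085, edgeR adjusted p = 0.0687). It passed the test without Mttp_KO_CM replicate 3 (-0.29, adjusted p = 3.8e-03), without the unnumbered Mttp_KO_CM library (-0.25, adjusted p = 0.0285) and without Mttp_flox_CM replicate 3 (-0.24, adjusted p = 0.0413).

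Serpina1e (ENSMUSG00000072849, chromosome 12 from 103913190 to 103925234, minus strand) was the least abundant copy. Its FPKM values were 10.2, 11.1, 10.7, 16.9 and 10.2 in Mttp_KO_CM and 9.46, 9.83, 14.3, 10.97 and 9.82 in Mttp_flox_CM, on 233 to 430 counts in Mttp_KO_CM and 221 to 376 in Mttp_flox_CM. In each group 1 library stood above the other 4, replicate 4 of Mttp_KO_CM and replicate 3 of Mttp_flox_CM. The log2 change was 0.11 (SE 0.12, edgeR adjusted p = 0.511), and it was -0.05 without Mttp_KO_CM replicate 4.

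Summing the 5 copies avoids the question of which of them a shared read belongs to. It does not settle reads lost to all of them, reads counted more than once, or reads shared with Gm8893, a pseudogene described below. The 5 copies together had 1892 ± 82.6 CPM in Mttp_KO_CM and 2831 ± 86.4 CPM in Mttp_flox_CM, a ratio of 0.669, with libraries from 1782 to 2005 CPM in Mttp_KO_CM and from 2733 to 2919 CPM in Mttp_flox_CM. The sum was therefore lower in every Mttp_KO_CM library. Serpina1a and Serpina1b summed to 1508 ± 61.5 CPM in Mttp_KO_CM and 2443 ± 86.8 CPM in Mttp_flox_CM. The other 3 copies summed to 385 ± 33.5 CPM in Mttp_KO_CM and 388 ± 7.62 CPM in Mttp_flox_CM.

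In the summed alpha-1-antitrypsin counts, Serpina1b had a lower share and Serpina1d and Serpina1e a higher share in Mttp_KO_CM. The shares of a library add up to a whole, so the drop of Serpina1b and Serpina1a already given raises the shares of the other copies by arithmetic, and the tests of shares restate the unequal change of the copies. They show no higher level of Serpina1d or Serpina1e. Serpina1d made up 14.2%, 13.3%, 14.9%, 15.2% and 14.2% of the summed Serpina1 counts in Mttp_KO_CM and 9.44%, 9.09%, 8.86%, 9.62% and 9.41% in Mttp_flox_CM. Every Mttp_KO_CM library was above every Mttp_flox_CM library, and the means of 14.4 ± 0.754% in Mttp_KO_CM and 9.28 ± 0.304% in Mttp_flox_CM differed by 5.08 percentage points. Serpina1b made up 55.7 ± 1.51% in Mttp_KO_CM and 60.8 ± 0.928% in Mttp_flox_CM, again with no overlap. Serpina1e made up 1.02 ± 0.262% in Mttp_KO_CM, against 0.625 ± 0.112% in Mttp_flox_CM. For each of these 3 shares the two-sided exact permutation test over the 10 libraries gave p = 0.00794, the smallest that regrouping them can give, and p = 0.0132 after Benjamini-Hochberg adjustment over the 5 shares. Serpina1c made up 4.93 ± 0.871% in Mttp_KO_CM and 3.81 ± 0.349% in Mttp_flox_CM, with overlap (exact p = 0.0238, adjusted p = 0.0298). Serpina1a made up 24.0 ± 1.06% in Mttp_KO_CM and 25.5 ± 1.11% in Mttp_flox_CM (exact p = 0.0635, adjusted p = 0.0635). The Serpina1c share no longer passed when any of Mttp_flox_CM replicates 1 to 4 was left out (adjusted p = 0.0794, 0.0595, 0.0794 and 0.0694), and the Serpina1a share passed without the unnumbered Mttp_flox_CM library (adjusted p = 0.0298). Shares depend on how reads that match several copies were counted, which was not stated. The part of read placement in these differences was not tested.

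**Figure D3:**
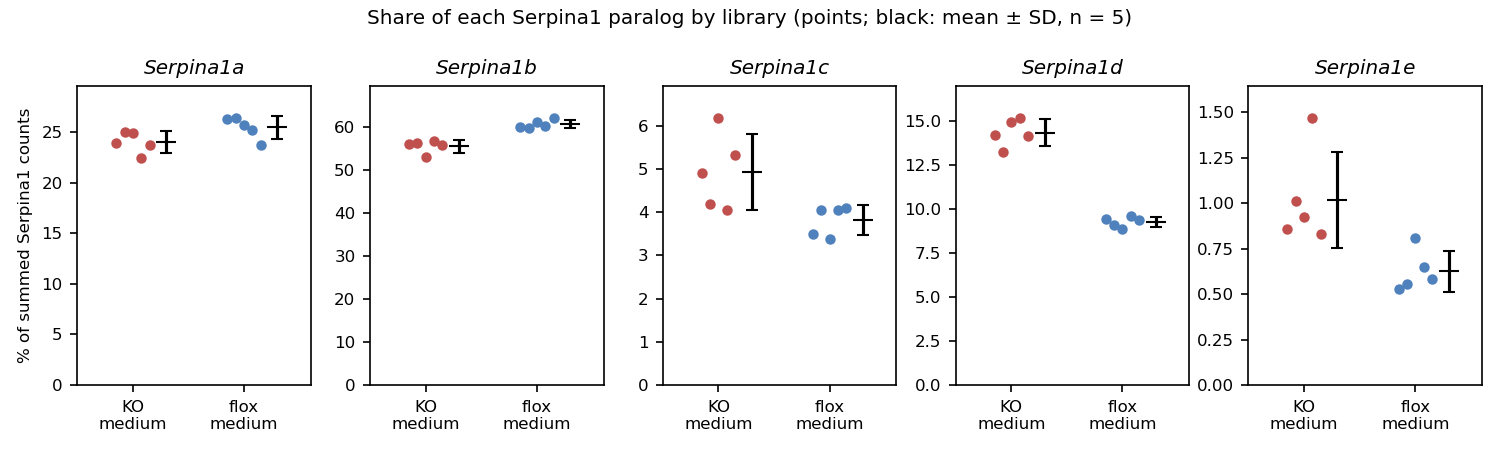
Share of each alpha-1-antitrypsin copy in the summed Serpina1 counts of a library (vertical axis, percent, starting at 0), with Mttp_KO_CM in red on the left, Mttp_flox_CM in blue on the right, and black marks for the mean ± SD (n = 5 each). The Serpina1d and Serpina1e points of Mttp_KO_CM all lie above those of Mttp_flox_CM, and the Serpina1b points all lie below.

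Levels of different transcripts are compared per length, in deposited FPKM. In Mttp_KO_CM the order was Alb (10658 ± 248 FPKM), Ahsg (2279 ± 96.3), Gc (934 ± 32.0), Ttr (538 ± 9.56), Serpina1b (434 ± 21.5), Serpina1a (247 ± 12.2), Serpina1d (194 ± 14.4), Serpina1c (68.4 ± 13.5), Serpina1e (11.8 ± 2.86) and Serpina6 (1.02 ± 0.17). In Mttp_flox_CM it was Alb (12367 ± 196 FPKM), Ahsg (3525 ± 131), Gc (1116 ± 15.9), Serpina1b (708 ± 16.7), Ttr (631 ± 16.7), Serpina1a (392 ± 27.2), Serpina1d (187 ± 5.58), Serpina1c (78.7 ± 5.83), Serpina1e (10.9 ± 2.00) and Serpina6 (1.05 ± 0.244). The ranges of neighbours in the order did not overlap in either group. The orders differed at 1 place, since Ttr stood above Serpina1b in every Mttp_KO_CM library and below it in every Mttp_flox_CM library.

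The Serpina1 copies and Serpina6 lie in a serpin gene cluster on chromosome 12, and neighbouring genes differed in whether they passed the test. In the order of gene starts, Serpina6 did not pass the test, Serpina1b fell, Serpina1d did not pass, Serpina1a fell, and Serpina1c and Serpina1e did not pass. Between Serpina1d and Serpina1a, within the span of the Serpina1b model, the files list Gm8893, an unprocessed pseudogene from 103784115 to 103788502 that was singled out after its values were seen. Its transcript was 98.8% identical to the Serpina1a coding sequence over 1239 aligned bases. Gm8893 had 272 to 293 counts in Mttp_KO_CM libraries and 713 to 843 in Mttp_flox_CM libraries, a log2 change of -1.39 (SE 0.062, edgeR adjusted p = 3.2e-15). It fell further than any member, and its reads could not be separated with certainty from those of Serpina1a.

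**Figure D4:**
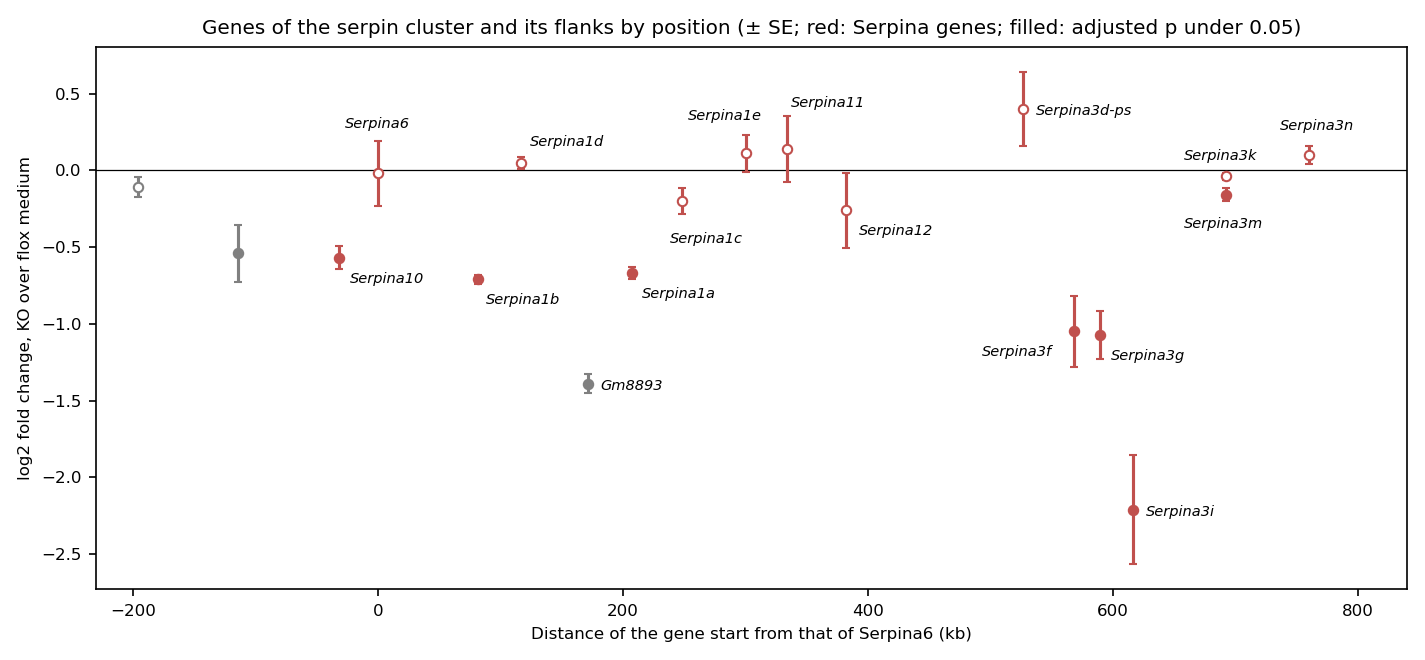
Log2 fold change of Mttp_KO_CM over Mttp_flox_CM (vertical axis, ± SE) of the 19 tested genes of the serpin cluster and its flanks on chromosome 12, by the distance of each gene start from that of Serpina6 in kb (horizontal axis), with Serpina genes in red, others in grey and filled points where the adjusted p was under 0.05. Of the 19 genes 9 were lower and 0 higher, where 18.1% and 18.2% of all genes tested were. The 9 include Serpina1a, Serpina1b and Gm8893, a pseudogene whose reads could not be separated with certainty from those of Serpina1a. By gene start, Serpina1b and Serpina1a, which fell, lie to either side of Serpina1d, which did not pass the test. The span of the Serpina1b model includes Serpina1d.

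Of 19 other serpins listed for that cluster, 9 were tested, 5 fell and 0 rose (median log2 -0.26), while 1 rose with no filter, with the replicate block or without Mttp_KO_CM replicate 1. Serpina10, the protein Z-dependent protease inhibitor, fell by 0.57 on the log2 scale to 15.1 ± 1.92 CPM in Mttp_KO_CM, against 22.3 ± 0.836 CPM in Mttp_flox_CM, and Serpina3m fell by 0.16. The abundant antichymotrypsin-like genes Serpina3k and Serpina3n had log2 changes of -0.04 (edgeR adjusted p = 0.223) and 0.10 (edgeR adjusted p = 0.167). Serpina3f and Serpina3g fell by 1.05 and 1.07, with means under 5 CPM in both groups, and Serpina3i had 1 to 6 counts in Mttp_KO_CM and 14 to 16 in Mttp_flox_CM. Of 13 tested serpins elsewhere in the genome, 5 fell and 3 rose (median log2 0.00). The antiplasmin gene Serpinf2 fell by 0.30.

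Other secreted carriers fell more often than they rose. Of 20 listed, 19 were tested, 8 fell and 3 rose (median log2 -0.06). Trf, the iron carrier transferrin, fell by 0.24 to 10057 CPM in Mttp_KO_CM, against 11859 CPM in Mttp_flox_CM, and Selenop, the selenium carrier, fell by 0.37. The growth factor binding protein genes Igfbp4 and Igfbp1 fell by 1.02 and 0.28. Serpina7, which encodes thyroxine-binding globulin, rose by 0.56 to 18.3 CPM in Mttp_KO_CM, against 12.4 CPM in Mttp_flox_CM, while its fellow thyroxine carrier Ttr fell. Rbp4, the retinol-binding protein that travels with transthyretin, fell by 0.09 (SE 0.027), less than Ttr.

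Genes for partners, receptors and salvage of these proteins moved in both directions, 4 higher and 4 lower of 15 tested (median log2 -0.09), with 7 lower under library size alone. Fcgrt, the receptor that rescues albumin from degradation, rose by 0.15, and Asgr1, a receptor for desialylated plasma glycoproteins, rose by 0.28. Lrp1, which clears serpin-protease complexes, fell by 0.24. Nr3c1, the glucocorticoid receptor, fell by 0.16. Of 28 genes for export from and quality control in the endoplasmic reticulum, 11 rose and 1 fell (median log2 0.05). Most of these genes are abundant, and among all genes of at least 100 CPM 41.8% were higher with the same median of 0.05. The number that rose lies near that background. Of the genes of at least 100 CPM 19.6% were lower, against 1 of the 28 listed here. Sar1b, which drives coat assembly at exit sites, rose by 0.55 and the chaperone gene Hspa5 by 0.26. Lman1, a cargo receptor for alpha-1-antitrypsin, had a log2 change of 0.05 and did not pass the test (edgeR adjusted p = 0.162).

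Among 23 liver-enriched transcription factors, 7 rose and 7 fell (median log2 -0.04). Foxa3, which binds liver promoters, fell by 0.62 to 34.3 CPM in Mttp_KO_CM, against 52.5 CPM in Mttp_flox_CM. Cebpd fell by 0.36, while Foxa1 rose by 0.44, Cebpb by 0.26 and Nr1h4, the bile acid receptor, by 0.32. Acute phase genes fell in 12 of 24 and rose in 4 (median log2 -0.04). The fibrinogen chain gene Fgb fell by 0.28, the interleukin-1 receptor antagonist gene Il1rn by 0.79 and Hamp, the iron hormone hepcidin, by 0.29, while Lcn2 rose by 0.12. Genes responsive to glucocorticoids fell in 10 of 16 and rose in 2 (median log2 -0.25). Fkbp5, a chaperone of the glucocorticoid receptor, fell by 0.47, the kinase gene Sgk1 by 0.40, Igfbp1 by 0.28 and the tyrosine aminotransferase gene Tat by 0.97.

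Most markers of endothelial cells, macrophages and stellate cells fell, as did 6 of the 10 members. All 16 endothelial markers fell (median log2 -0.78), with summed levels of 1457 to 1536 CPM in Mttp_KO_CM and 2537 to 2707 CPM in Mttp_flox_CM. Of 13 macrophage markers 12 fell and 1 rose (0 rose with library size alone), with sums of 726 to 828 CPM in Mttp_KO_CM and 1027 to 1142 CPM in Mttp_flox_CM. Of 12 stellate cell markers tested 10 fell and 0 rose, with sums of 63.3 to 70.6 CPM in Mttp_KO_CM and 112 to 123 CPM in Mttp_flox_CM. None of the listed endothelial, macrophage and stellate markers was at 0 in all libraries, while 2 stellate markers, Hand2 and Ngfr, were filtered out. Of 6 cholangiocyte markers tested 3 fell and 0 rose, with sums of 315 to 382 CPM in Mttp_KO_CM and 567 to 629 CPM in Mttp_flox_CM. Spp1 held most of that sum, with means of 283 CPM in Mttp_KO_CM and 513 CPM in Mttp_flox_CM. Sox9 and Cldn4 fell by 0.29 and 0.44 on the log2 scale. Krt19, Krt7 and Epcam, with log2 changes of -0.17, -0.15 and 0.11, did not pass the test (edgeR adjusted p = 0.261, 0.63 and 0.768). Ptprc was the sole tested gene of 9 lymphoid markers and fell by 0.37. Fabp4 was the sole tested gene of 6 adipocyte markers and rose by 0.13. That call was lost with library size alone, with limma on FPKM at both pseudocounts, and without Mttp_KO_CM replicate 2, Mttp_KO_CM replicate 4 or Mttp_flox_CM replicate 3. Hba-a1, the sole tested gene of 5 red cell markers, did not pass. Lep and Cfd among adipocyte markers and Cd3g and Nkg7 among lymphoid markers were at 0. Of the 18 hepatocyte markers, none of which is a member, 9 fell and 2 rose (median log2 -0.11), and among them Apoa1, the main HDL protein, fell by 0.54 and Tdo2, a tryptophan-degrading enzyme, rose by 0.95. The part of these shifts in cell markers in the change of the carriers was not tested.

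Small differences between libraries of the same group gave a further description. After each group mean was subtracted from log2 of CPM plus 0.5, the genes most like Alb over the 10 libraries, among genes of at least 50 CPM and members left out, were Tomm20 (Pearson r = 0.925), Anxa5 (0.915), Rbm7 (0.895), Jak2 (0.892) and Psmb7 (0.888). Of these, Tomm20 rose by 0.33 between the groups while Alb fell. For the summed Serpina1 level the genes were Eif3l (r = 0.959), Rhbdd1 (0.891), Rnf185 (0.880), Tmem214 (0.867) and Tbcel (0.848). The libraries share depth and scaling, and a likeness over 10 values is a description only. Among the members of at least 50 CPM, Alb had r = 0.687 with Serpina1a, 0.623 with Serpina1c, 0.563 with Gc, 0.463 with Serpina1d, 0.397 with Ahsg, 0.308 with Ttr and 0.274 with Serpina1b.

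Promoter sequence was available from RefSeq (GRCm38.p6) for 8 of the 10 members, and the 250 bases before the annotated start were searched on both strands for short motifs. CCAAT, a common promoter box, was found in the windows of Alb, Gc and all 5 Serpina1 copies, and in 33.9% of 32851 such windows in the table. It was not found in the Ahsg window. The windows of Alb, Gc, Serpina1b, Serpina1d and Ahsg are shown 5′ to 3′ with CCAAT or its reverse complement ATTGG in capitals, Serpina1b and Serpina1d because they moved unlike each other and Ahsg because it fell without a match.
Alb (chr5:90460620-90460869, plus strand): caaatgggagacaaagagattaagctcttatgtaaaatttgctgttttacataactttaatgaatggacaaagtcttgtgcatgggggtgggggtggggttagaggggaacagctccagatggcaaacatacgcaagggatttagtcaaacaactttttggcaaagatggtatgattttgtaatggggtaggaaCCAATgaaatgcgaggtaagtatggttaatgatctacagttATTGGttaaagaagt
Gc (chr5:89457899-89458148, minus strand): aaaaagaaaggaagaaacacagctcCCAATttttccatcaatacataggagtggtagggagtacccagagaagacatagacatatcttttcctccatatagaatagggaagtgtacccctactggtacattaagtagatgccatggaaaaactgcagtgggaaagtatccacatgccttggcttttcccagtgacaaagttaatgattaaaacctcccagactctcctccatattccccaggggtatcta
Serpina1b (chr12:103738190-103738439, minus strand): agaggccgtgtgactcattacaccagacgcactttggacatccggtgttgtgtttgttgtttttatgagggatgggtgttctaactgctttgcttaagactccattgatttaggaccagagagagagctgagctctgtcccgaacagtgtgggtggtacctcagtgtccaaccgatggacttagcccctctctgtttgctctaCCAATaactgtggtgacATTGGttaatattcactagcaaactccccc
Serpina1d (chr12:103773634-103773883, minus strand): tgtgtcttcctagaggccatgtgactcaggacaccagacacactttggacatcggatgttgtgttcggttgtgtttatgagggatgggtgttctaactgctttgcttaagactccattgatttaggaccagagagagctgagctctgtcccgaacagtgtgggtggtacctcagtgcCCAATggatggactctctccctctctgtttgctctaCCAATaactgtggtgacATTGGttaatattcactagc
Ahsg (chr16:22891765-22892014, plus strand): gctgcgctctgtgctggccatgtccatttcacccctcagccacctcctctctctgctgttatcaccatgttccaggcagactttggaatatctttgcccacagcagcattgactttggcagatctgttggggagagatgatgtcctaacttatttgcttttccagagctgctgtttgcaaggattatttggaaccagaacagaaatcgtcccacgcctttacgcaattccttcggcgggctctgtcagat
Counting the last base before the start as -1, the nearest match began at -15 in Alb, -225 in Gc, -30 in Serpina1b and -20 in Serpina1d, and the annotated starts of the copies are not at the same place in their alignment. The windows of Serpina1b and Serpina1d were 85.1% identical in a global alignment, with gaps counted as differences. AGGTCA, bound by many nuclear receptors, and TGTTTAC, a core of the FOXA site, were found in none of the 8 windows and in 14.0% and 3.17% of all windows. A match is a string of letters and no measure of binding.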

How the data were processed

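RNA sequencing libraries of mouse hepatocytes, 5 per group, were analysed from the deposited tables. The authors deposited whole-number counts per gene and a table of FPKM values per gene; the tools named in the submitters' processing notes are featureCounts 1.5.0-p3 and HISAT2 2.0.5, with build GRCm39. The strand setting, annotation release and handling of multi-mapped reads were not stated.

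Counts were tested in R 4.3.3 with edgeR 4.0.16 (filterByExpr at 10 counts, total 15, TMM scaling, glmQLFit and glmQLFTest with the group as the sole term, tested on simulated data). The filter left 14183 of 56748 genes and 99.8% of counts, and Benjamini-Hochberg adjustment ran over all of them with a threshold of 0.05. SE values are the log2 change divided by the root of the F statistic. Log2 changes are Mttp_KO_CM over Mttp_flox_CM with a prior count of 0.125. Paralog shares were tested by an exact permutation test over libraries.

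The members, the lists and the rule for named genes (the members, and up to 6 genes per list by p) were chosen with earlier results of these data known. Gm8893, Serpina3k, Rbp4, Lman1, Afp and Afm were named outside that rule after their values were seen, as were the flanks of the serpin cluster. Some genes of these lists are not reported here. Tf was matched as Trf. Alternatives were DESeq2 1.42.0, other scalings and filters, limma 3.58.1 on log2 of FPKM plus 1 or 0.1, a replicate block and leaving libraries out. Sequences were aligned with Biopython 1.88. Totals per library ranged from 14199798 to 17178131 counts.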

Additional observations from a re-analysis of the deposited data

Results flagged for a closer look

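In 4 cases a value stood apart from the other 4 libraries of their group, by a gap to the nearest library that was large against the range of the group. Among 30 groups looked at, chance flags about 1 in 20. Serpina1d in Mttp_KO_CM replicate 2 was low at 236.6 CPM, where the others lay between 274.1 and 284.5 CPM. Serpina1e in Mttp_KO_CM replicate 4 was high at 27.4 CPM, where the others lay between 16.6 and 18.0 CPM. The same library was high for the Serpina1e share of summed Serpina1 counts, with 1.47% where the others lay between 0.8292% and 1.01%. The Serpina1b share was low in Mttp_KO_CM replicate 3, with 53.0% where the others lay between 55.9% and 56.8%.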

How the results depend on the processing

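Each log2 change was recomputed under 19 alternatives, of which 10 left out 1 library each, and 176 of 189 values kept their direction and their side of the threshold. Alb, Ttr, Gc, Ahsg, Serpina1a and Serpina1b kept both under all of them. The number of members called lower was 6 or 7, and 0 were called higher except without Mttp_KO_CM replicate 2, where 1 was. Serpina1c passed with library size alone (-0.24, adjusted p = 0.0273), with no filter (-0.21, adjusted p = 2.7e-06) and with a replicate block (-0.25, adjusted p = 0.0187), and it ran from -0.29 to -0.13 over the libraries left out. Over the same libraries Serpina6 ran from -0.12 to 0.07, Serpina1e from -0.05 to 0.23 and Serpina1d from 0.03 to 0.09. Serpina6 was not tested with the stricter filter. Of the lists, other carriers called lower were 5, against 8, with limma at a pseudocount of 0.1, acute phase genes called higher were 7, against 4, with no filter, and other cluster serpins called lower were 3, against 5, with the stricter filter.

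As shares of summed FPKM, the Serpina1a share passed (-2.58 points, adjusted p = 0.0198) and the Serpina1c share did not (1.41 points, adjusted p = 0.0635). Without both unnumbered libraries the Serpina1a share passed (-1.85 points) and the Serpina1c share did not (1.09 points, adjusted p = 0.0571). Over the libraries left out the Serpina1a share ran from -1.92 to -1.07 points and the Serpina1c share from 0.808 to 1.34. Same-numbered libraries did not deviate together (correlations from -0.00815 to 0.0609), so the numbers were not taken to pair them. In a replicate block of the 4 numbered pairs the shares of Serpina1b, Serpina1c, Serpina1d and Serpina1e differed by -4.83, 1.09, 5.15 and 0.429 points with an exact sign-flip adjusted p of 0.125, the smallest this design allows. The cause of these differences was not tested. Depth limits Serpina6.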
